A study of Homo sapiens with 8 samples.

Results

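Outside chromosome 19, many human zinc finger genes sit in small clusters, and 10 of these were examined for the heterochromatin mark H3K9me3. The clusters were set by position on hg19. They are chr1:247000001-247500000, chr3:44400001-44900000, chr4:1-500000, chr5:178100001-178600000, chr6:27900001-28600000, chr7:148700001-149500000, chr8:145900001-146300000, chr10:38000001-38600000, chr12:133400001-133800000 and chr16:3100001-3600000. Together they make up 5.4 Mb, or 540 of the 309555 tiles of 10 kb in hg19. They lie in the bands 1q44, 3p21.31, 4p16.3, 5q35.3, 6p22.1, 7q36.1, 8q24.3, 10p11.1, 12q24.33 and 16p13.3.

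The mark was mapped by ChIP-seq in PC9, an established lung adenocarcinoma line with an activating EGFR mutation. Parental cells received no drug. Drug-tolerant persisters (DTP) were the cells alive after 8 days in 1 uM erlotinib, an EGFR kinase inhibitor. DTP + TSA were persisters given 50 nM trichostatin A, a histone deacetylase inhibitor, for 5 hours on the last day. Each state had 1 library and 1 list of enriched intervals, so differences are described without p-values. The covered share of a region is the percentage of its length inside called intervals. Read depth is unknown from the lists, and ranges in parentheses after a share are exact (Clopper-Pearson) 95% intervals that cover counting error only, as does the range after the ratio of interval numbers.

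C2H2 zinc finger proteins bind DNA through arrays of fingers, and many carry a KRAB domain. KRAB recruits the corepressor TRIM28, which brings in the H3K9 methyltransferase SETDB1. Many KRAB zinc finger proteins bind and silence transposable elements. The zinc finger genes themselves are a well-known target of H3K9me3, which lies mainly over their 3′ exons, where the finger arrays are encoded, while their promoters usually stay active.

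The names of the genes were checked in RefSeq. All 99 genes listed for the 10 stretches were found on the same chromosome in the RefSeq table of GRCh38.p14. Between the first and last listed gene of each stretch that table has 106 protein-coding genes, of which 70 carry zinc finger names (ZNF, ZSCAN, ZKSCAN or ZFP). That share ran from 4 of 4 on chromosome 10 and 7 of 8 on chromosome 12 to 5 of 13 on chromosome 4. Gene positions on hg19 were not used here, so tiles and intervals are not assigned to single genes.

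Upstream sequences are shown for 1 gene of each of the 4 clusters that mark the extremes of the comparison. These clusters all hold zinc finger genes, of partly different kinds, at very different H3K9me3 levels. Each gene shown is the first listed zinc finger gene of its cluster with an entry in RefSeq (GRCh38.p14). The 120 bases before the gene's start are given 5′ to 3′ on the gene's strand, with CpG sites in capitals. ZNF605 stands for the chromosome 12 cluster, the most covered in parental cells and the one with the largest fall in DTP. ZSCAN10, an embryonic stem cell factor, stands for chromosome 16, with the largest rise in DTP. ZNF354A stands for chromosome 5, with the largest rise after TSA, and ZKSCAN8 for chromosome 6, with the lowest parental coverage.
ZNF605: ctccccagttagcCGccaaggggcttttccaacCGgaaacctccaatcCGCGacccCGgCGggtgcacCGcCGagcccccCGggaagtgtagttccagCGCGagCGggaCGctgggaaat
ZSCAN10: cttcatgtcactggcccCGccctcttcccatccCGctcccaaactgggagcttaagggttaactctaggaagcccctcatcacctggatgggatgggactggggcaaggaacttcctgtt
ZNF354A: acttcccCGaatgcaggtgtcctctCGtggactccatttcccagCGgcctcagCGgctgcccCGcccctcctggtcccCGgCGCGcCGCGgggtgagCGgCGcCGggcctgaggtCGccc
ZKSCAN8: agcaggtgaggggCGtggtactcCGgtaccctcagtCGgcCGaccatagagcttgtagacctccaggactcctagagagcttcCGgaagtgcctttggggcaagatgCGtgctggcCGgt

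These stretches hold 13 CpG sites at ZNF605, 2 at ZSCAN10, 14 at ZNF354A and 7 at ZKSCAN8. The table had a promoter of 300 bases (250 before and 50 after the start) for 54 of the 71 listed zinc finger genes. Their median CpG count was 22, against 14 over all 27305 genes of the table. An observed-to-expected CpG ratio over 0.6 was found in 45 of the 54 (83.3%) and in 48.9% of all promoters. The letters CCGGAAG, the core of ETS factor sites, were present on either strand in 21 of the 54 (38.9%) and in 10.7% of all promoters. TATAAA was present in 2 of the 54 (3.70%) and in 11.95% of all. GGGCGG, the SP1 core, was present in 30 (55.6%) and in 44.6% of all, and the palindromic NRF1 site in 1 (1.85%) and in 1.36% of all. These 4 motifs were searched on both strands and none contains another. A match describes these windows only, and the H3K9me3 lists were not placed on gene starts. ZSCAN10 is not typical of its cluster, with 4 CpG sites in the promoter of 300 bases where the other 8 matched genes there have 13 to 31.

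**Figure D1:**
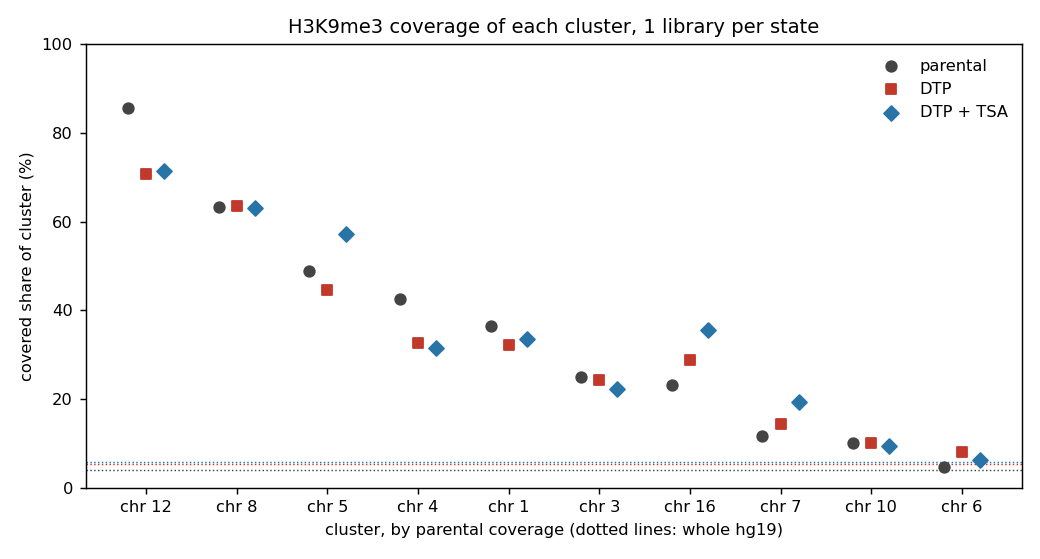
Covered share of each of the 10 clusters (vertical axis, percent) in the parental, DTP and DTP + TSA libraries (circles, squares and diamonds, 1 library each), ordered by parental coverage. Dotted lines give the share of the whole of hg19. The parental values run from 4.60% on chromosome 6 to 85.55% on chromosome 12.

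The 10 clusters differed more among themselves than any of them did between states. Together they were 30.8% (parental), 29.2% (DTP) and 31.4% (DTP + TSA) covered, against 4.05%, 5.32% and 5.79% of hg19. In parental cells the single clusters were covered by 4.60% on chromosome 6, 10.1% on chromosome 10, 11.8% on chromosome 7, 23.2% on chromosome 16 and 24.9% on chromosome 3. Chromosomes 1, 4, 5, 8 and 12 followed with 36.4%, 42.6%, 48.8%, 63.3% and 85.55%. The median window of 500 kb in hg19 was at 1.88%, and the 90th and 99th percentiles of 6182 such windows were 9.36% and 33.6%. In parental cells 9 clusters stood above the 90th percentile, and the 5 most covered stood above the 99th. The chromosome 6 cluster alone was lower, above 74.0% of windows.

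Covered length went down from parental to DTP in 5 clusters and up in 5. Over all 10 clusters it went from 1662 to 1579.4 kb, 0.95 times, while that of hg19 rose 1.32 times. The change was -14.85 points on chromosome 12, -10.04 on chromosome 4, -4.32 on chromosome 1, -4.24 on chromosome 5 and -0.72 on chromosome 3. It was 0.10 points on chromosome 10, 0.25 on chromosome 8, 2.55 on chromosome 7, 3.40 on chromosome 6 and 5.52 on chromosome 16. The signs turned under other selections of intervals. With each list held to its 23842 highest intervals by mean signal, the parental number, all 10 clusters were lower in DTP, at -13.65 points together, and with intervals within 5 kb joined the total rose by 1.14 points. Other zinc finger regions moved further or less. The band 19p12 went from 90.2% to 55.6%, the bands 19q13.41 to 19q13.43 from 39.5% to 37.9%, and 7q11.21, beside the centromere of chromosome 7, from 36.6% to 25.9%. These differences between regions were not tested.

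Of the parental covered length in the clusters 75.4% was also covered in DTP and 76.5% in DTP + TSA, against 50.3% and 48.9% over hg19. A length of 1136.4 kb was covered in all 3 libraries, which is 51.3% of the 2213.6 kb covered in any, and in hg19 this share was 18.5%. An overlap of 1 bp or more with DTP was found for 114 of the 140 parental intervals in the clusters, 81.4% (74.0 to 87.5), where the share over hg19 was 64.1%. In the other direction 194 of the 258 DTP intervals, 75.2% (69.5 to 80.3), met a parental interval, where the share over hg19 was 34.2%. Overlap is met more easily where intervals are dense and long. The clusters were 30.8% (parental) and 29.2% (DTP) covered, and hg19 4.05% and 5.32%, so the hg19 shares are not matched baselines. The same holds for the later overlap shares. The clusters kept most on chromosome 8, at 91.5% of parental length in DTP, and least on chromosome 10, at 45.9%. The 26 parental intervals absent from DTP were short, with a median of 2800 bp against 6600 bp for the 114 that were overlapped. The 81.4% depends on the selection and the criterion: it was 46.4% with each list held to its 23842 highest intervals by mean signal, 54.3% by summit value and 51.4% with a reciprocal overlap of 50%.

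**Figure D2:**
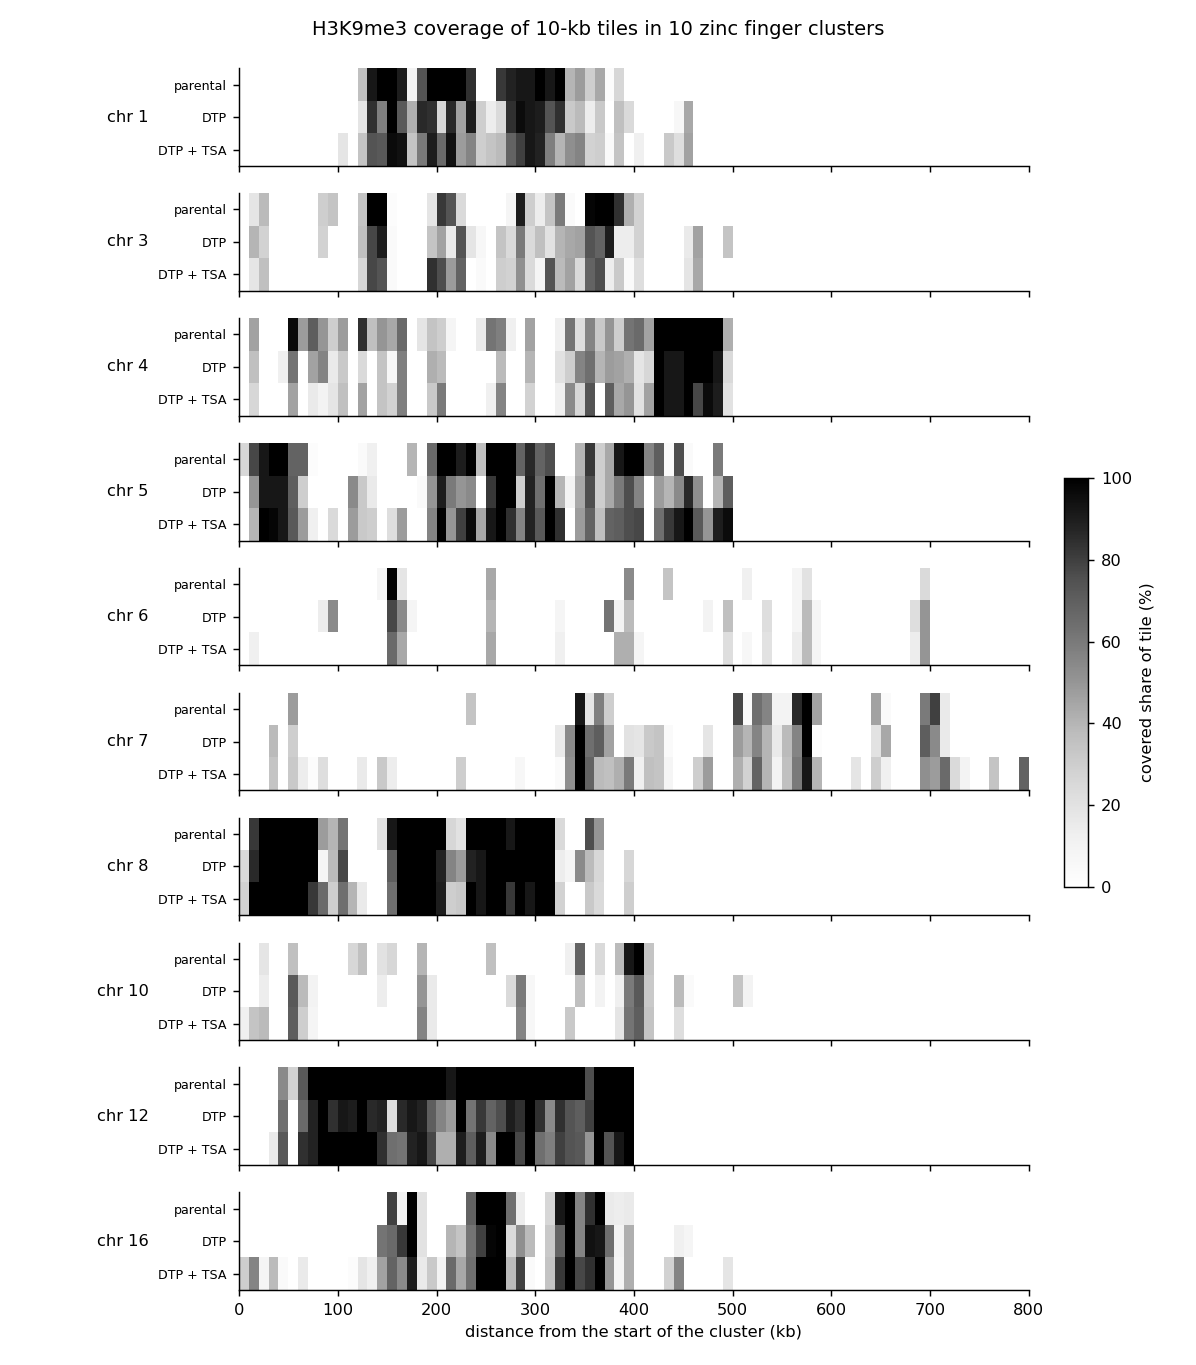
Covered share of each 10-kb tile (grey scale, white 0 to black 100%) along the 10 clusters, against distance from the cluster's start in kb, with 1 row per library. Blocks that are solid in the parental row, as on chromosome 12, are broken by paler tiles in the DTP and DTP + TSA rows at the same places, while the blocks on chromosome 8 stay dark.

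By tiles, falls outnumbered rises in DTP, the reverse of hg19, where a smaller part of the covered tiles had parental coverage. A tile was called changed when its covered share moved by 20 points or more. Of the 358 cluster tiles with coverage in any library 77 or 21.5% fell, against 13.9% of such tiles in hg19 (3.72% of all its tiles), and 56 or 15.6% rose, against 24.8% (6.67% of all). A tile without parental coverage cannot fall, and a fully covered one cannot rise. Of the 358 cluster tiles, 105 had parental coverage of 90% or more and 152 had less but some. In hg19 these were 2876 and 29607 of the 83053 tiles with any coverage. The shares of falls and rises are therefore not like for like between the clusters and hg19. At 50 points the order turned, with 9 falls and 12 rises. The falls were spread over all 10 clusters, with 16 on chromosome 5, 12 on chromosome 4, 11 on chromosome 12 and 10 on chromosome 3, and 2 to 8 in each of the others. No tile rose on chromosome 12 and 1 rose on chromosome 4. The most rises were on chromosome 7 with 9, and on chromosomes 3, 5 and 16 with 8 each.

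Tiles that were full in parental cells lost part of their coverage and rarely most of it. In the clusters 105 tiles were covered by at least 90%, with a mean of 98.7%, and these had a mean of 84.7% in DTP and 84.4% in DTP + TSA. Of the 105, 49 were below 90% in DTP, where the share in hg19 was 64.3%. Only 4 of the 105 were below 50% in DTP, where the share in hg19 was 35.6%. The mean of such tiles in DTP was 61.1% over hg19, 53.6% over hg19 without chromosome 19, 63.1% in 19p12 and 88.7% in 19q13.41 to 19q13.43. At the other end, 59 of 283 cluster tiles without parental coverage (20.8%) had some in DTP, where the share in hg19 was 12.5%. After TSA 83 (29.3%) had some, where it was 14.1%. Since a full tile can only fall and an empty one only rise, values of hg19 from the same starting class are set beside them. They are not matched on distance to a chromosome end. Within 5 Mb of an end, tiles without parental coverage had means after TSA of 13.5% in the clusters and 13.8% over hg19. Farther in, these means were 5.75% and 2.87%.

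The intervals of the clusters were shorter and more numerous in DTP, as were those of hg19. In the clusters their number rose from 140 to 258, 1.84 times, on about the same covered length. Over hg19 it rose from 23842 to 47866, 2.01 times, on a covered length that rose 1.32 times. The number was higher in DTP in 9 of 10 clusters, the exception being chromosome 4 with 39 and 36. Per covered Mb the clusters held 84.2 (parental), 163 (DTP) and 169 (DTP + TSA) intervals. DTP over parental was 1.94 (1.57 to 2.40) by this measure, and the ratio was above 1 in all 10 clusters, from 1.08 on chromosome 6 to 9.44 on chromosome 12. With each list held to its 23842 highest intervals by summit value, it was above 1 in 8 clusters. For hg19 it was 1.53, and for the other 9 clusters without chromosome 12 it was 1.65. In 19p12 it was 3.59, in 19q13.41 to 19q13.43 1.98 and in 7q11.21 1.55.

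The lengths of the intervals that hold most of the mark went down. The length-weighted median is the interval length at which intervals of that size or longer hold at least 50% of the covered length, with intervals cut at the cluster borders. Over all 10 clusters it was 32.8 kb (parental), 8.80 kb (DTP) and 8.40 kb (DTP + TSA), and 6.4, 4.60 and 4.40 kb over hg19. It was lower in DTP in 8 clusters, and higher on chromosome 6, at 5.40 and 6 kb, and on chromosome 8, at 54.8 and 69.4 kb. The chromosome 12 cluster went from 136.8 to 12.4 kb, chromosome 5 from 27.8 to 9.40 kb, chromosome 16 from 23.2 to 14.2 kb and chromosome 1 from 22.2 to 8.60 kb. Intervals over 16 kb held 65.3% (parental), 30.9% (DTP) and 31.7% (DTP + TSA) of the length of the intervals touching the clusters. Over hg19 these shares were 18.2%, 7.41% and 9.53%.

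**Figure D3:**
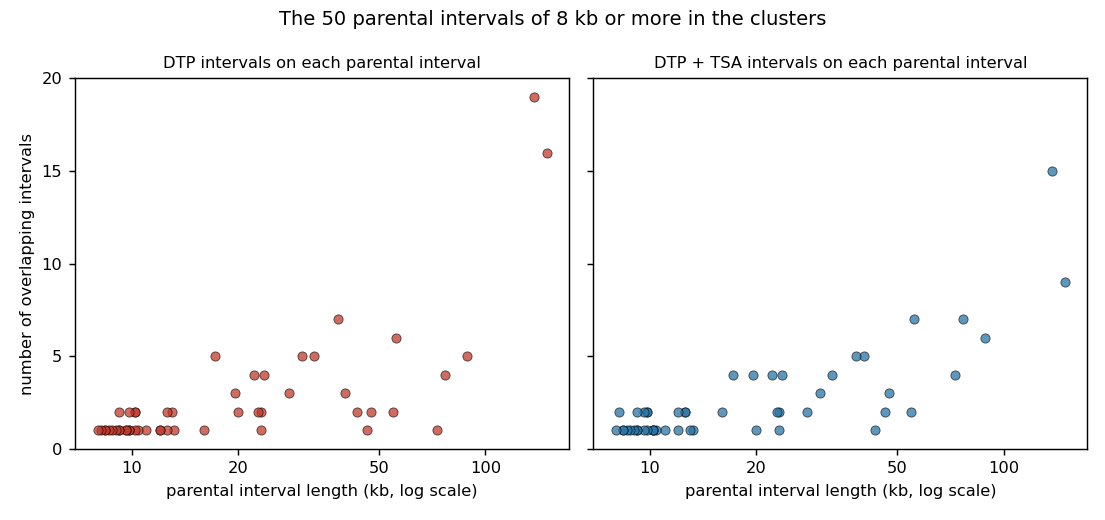
Number of DTP intervals (left) and DTP + TSA intervals (right) that overlap each of the 50 parental intervals of 8 kb or more in the clusters, against parental length in kb on a log axis. The 2 longest, both on chromosome 12, carry 16 and 19 DTP intervals, and no parental interval lies at 0.

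Every long parental interval of the clusters overlapped a DTP interval. Of the 50 parental intervals of at least 8 kb none was absent from DTP or from DTP + TSA, whereas 21.5% of those in hg19 were absent from DTP. In DTP 26 of the 50 (52.0%, 37.4 to 66.3) met 2 or more intervals, against 23.9% over hg19, and the other 24 met 1. Of the 24 intervals of at least 16 kb, 20 (83.3%, 62.6 to 95.3) were split, against 57.2% over hg19. After TSA 29 of the 50 and 21 of the 24 were split, against 24.9% and 57.8% over hg19. The cluster intervals of at least 8 kb kept 80.7% of their length in DTP, and those of hg19 55.7%. They made up 1391.6 kb and held 1.0 DTP intervals per 10 kb of parental length, against 0.8 in hg19. Intervals absent from DTP count as unsplit in the hg19 shares, and less of the parental length was kept there. The cluster intervals were also longer, with 24 of the 50 at 16 kb or more, against 682 of 3260 in hg19. These values therefore do not measure splitting per kept length.

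The reverse was less frequent. Of the 50 DTP intervals of at least 8 kb in the clusters 4 met 2 or more parental intervals, against 11.6% over hg19, and parental intervals covered 93.0% of their length. Of the 16 DTP intervals of at least 16 kb, 3 were split in parental cells, against 32% over hg19. In DTP + TSA 17 of the 50 and 10 of the 16 were split, against 28.2% and 53.2% over hg19. The parts of parental coverage missing from DTP numbered 223, with a median length of 1200 bp, a longest of 9 kb and a total of 409.2 kb. In DTP + TSA they numbered 213, also with a median of 1200 bp, and made up 390.6 kb. No list has a gap below 800 bp between intervals, so shorter breaks cannot be seen.

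**Figure D4:**
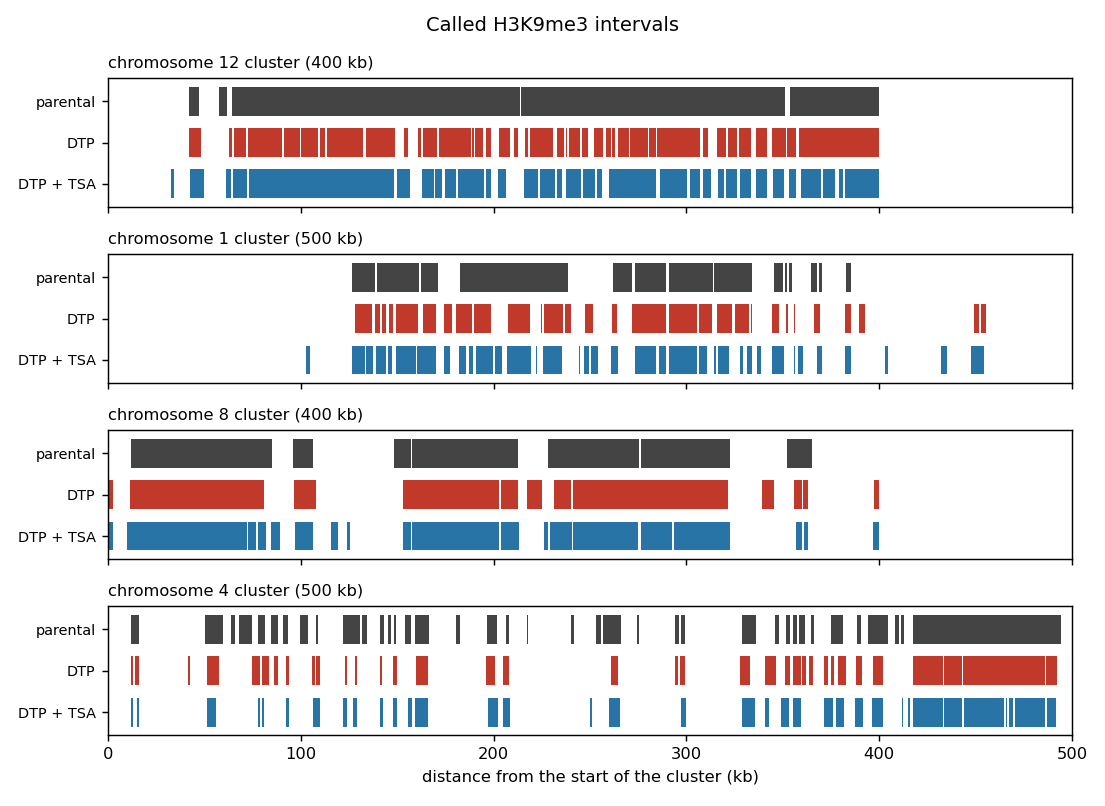
Called intervals in the clusters on chromosomes 12, 1, 8 and 4, against distance from the cluster's start in kb, with a row each for parental (grey), DTP (red) and DTP + TSA (blue). On chromosome 12 a run of 3 long parental intervals becomes many shorter ones, the long interval of chromosome 1 is broken up as well, and on chromosomes 8 and 4 the long blocks persist.

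The chromosome 12 cluster, at the very end of the long arm and 0.0519 Mb from it, was the most covered, and its number of intervals per covered Mb rose by the largest factor. It holds ZNF605, ZNF26, ZNF84, ZNF140, ZNF891, ZNF10 and ZNF268. ZNF10, also called KOX1, is the source of the KRAB domain most used in synthetic repressors. Coverage was 85.55% (parental), 70.7% (DTP) and 71.45% (DTP + TSA), in 5, 39 and 32 intervals. The parental domains chr12:133464401-133613600 (149.2 kb), chr12:133614401-133751200 (136.8 kb) and chr12:133753601-133842000 (88.4 kb) met 16, 19 and 5 DTP intervals, which covered 81.2%, 77.9% and 88.2% of them. After TSA they met 9, 15 and 6. The longest interval was 58.8 kb in DTP, at chr12:133758201-133817000, and 75.2 kb in DTP + TSA, at chr12:133473201-133548400. The tile chr12:133550001-133560000 changed most in both steps, from 100% in parental cells to 22% in DTP and 64% after TSA.

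The chromosome 8 cluster, 0.0640 Mb from the end of the long arm, kept the largest part of its parental length, 91.5% in both other states. It contains ZNF251, ZNF34, ZNF517, ZNF7, ZNF250 and ZNF16, beside RPL8, which encodes a protein of the large ribosomal subunit. Coverage was 63.3%, 63.55% and 63.05% over the states, in 7, 12 and 19 intervals. The 4 longest parental intervals kept 91.6% to 97.8% of their length in DTP, and 2 of them, chr8:146128001-146175400 and chr8:146176201-146222400, were bridged by the DTP interval chr8:146141001-146221400 (80.4 kb). Its 21 tiles at 90% or more had a mean of 97.0% in DTP and 95.3% after TSA. Shorter domains kept less, such as chr8:146252401-146265000 (12.6 kb) with 50.8% in DTP. The tile chr8:146240001-146250000 went from 0 to 54% and back to 0 over the states, and chr8:145980001-145990000, at the end of the longest domain, was at 48%, 8% and 66%.

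The chromosome 4 cluster begins at the end of the short arm and fell by 10.04 points in DTP, next after chromosome 12. It includes ZNF595, ZNF718, ZNF732, ZNF141 and ZNF721, and ends beside PIGG, an enzyme of GPI anchor synthesis. Coverage was 42.6%, 32.6% and 31.4% over the states. The long domain chr4:417401-494200 (76.8 kb) kept 94.5% of its length in DTP, in 4 intervals, and 90.1% after TSA, in 7. The losses lay mainly outside it. The 31 partly covered tiles of the cluster went from a mean of 43.1% to 28.4% and 28.3%. The 8 full tiles went from 99.5% to 92.2% and 86.8%. Of these 8, the tile chr4:50001-60000 lies outside the domain and was at 96%, 62% and 46%. The tile chr4:250001-260000 was at 62%, 0 and 12%. Of its 39 parental intervals 27 (69.2%) overlapped DTP and 24 (61.5%) overlapped DTP + TSA, near the shares in hg19 of 64.1% and 62.4%. With each list held to intervals above its median signal the direction turned, and the cluster rose by 3.96 points in DTP.

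The chromosome 5 cluster, 2.32 Mb from the end of the long arm, fell in DTP and then had the largest rise of the 10 with TSA. It contains ZNF354A, ZNF354B, ZNF354C, ZFP2, ZNF454 and ZNF879, with GRM6, a glutamate receptor of retinal bipolar cells, among them. Coverage was 48.8%, 44.5% and 57.2%, in 22, 36 and 37 intervals. The domain chr5:178346601-178386800 (40.2 kb) kept 77.6% in DTP and 90.05% after TSA, and chr5:178484201-178514400 (30.2 kb) 54.97% and 68.9%. Of the parental length missing in DTP 51.7% was covered after TSA, and in hg19 this was 14.2%. That hg19 share is not matched on distance to a chromosome end. The tile chr5:178550001-178560000 was at 4%, 86% and 100%, and chr5:178570001-178580000 at 0, 0 and 50%.

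On chromosome 1 coverage was 36.4%, 32.1% and 33.6%, and the number of intervals 14, 29 and 36. This cluster, 1.75 Mb from the end of the long arm, contains ZNF695, ZNF670, ZNF669, ZNF124 and ZNF496, and begins beside AHCTF1, which encodes the nuclear pore protein ELYS. Its longest parental domain, chr1:247182601-247238400 (55.8 kb), kept 68.1% of its length in 6 DTP intervals and 73.5% in 7 after TSA. No DTP interval there was above 18.0 kb and no DTP + TSA interval above 14.6 kb. The tile chr1:247200001-247210000 went from 100% to 26% and 66%. With intervals within 5 kb joined the change of the cluster in DTP was 1.44 points instead of -4.32.

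On chromosome 3, far from any end, coverage was 24.9%, 24.2% and 22.4%, while intervals rose from 14 to 34 and 32. The genes include ZNF445, a regulator of genomic imprinting, with ZNF852, ZKSCAN7, ZNF660, ZNF197, ZNF35, ZNF502 and ZNF501. The parental and DTP totals were nearly equal, but 43.4 kb of parental coverage was missing in DTP. A length of 39.8 kb was covered in DTP alone of those 2 libraries. Of the parental length 65.2% was also covered in DTP, against 50.3% over hg19. The longest parental domain, chr3:44750201-44788400 (38.2 kb), kept 63.9% in 7 DTP intervals and 49.7% in 5 after TSA. The longest DTP interval was 10.0 kb. The tile chr3:44770001-44780000 was at 100%, 90% and 14%, and chr3:44620001-44630000 at 24%, 74% and 68%.

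The chromosome 16 cluster, 3.1 Mb from the end of the short arm, had the largest rise in DTP and rose again with TSA, from 23.2% to 28.7% and 35.5%. It mixes SCAN-type and KRAB zinc finger genes (ZSCAN10, ZNF205, ZNF213, ZNF200, ZNF263, ZNF75A, ZSCAN32, ZNF174 and ZNF597) with MEFV, the pyrin gene of familial Mediterranean fever. Its domains were well kept, at 85.3% of parental length in DTP and 90.3% after TSA. The longest, chr16:3333201-3376400 (43.2 kb), met 2 DTP intervals and was a single interval of 39.6 kb after TSA. The gains lay in tiles with little or no parental mark. The tile chr16:3260001-3270000 was at 10%, 82% and 54%, and chr16:3110001-3120000 at 0, 0 and 56%. Of its 31 tiles without parental coverage 6 (19.4%) had some in DTP and 18 (58.1%) after TSA. The shares in hg19 were 12.5% and 14.1%, whatever the distance from a chromosome end. The mean coverage of these 31 tiles after TSA was 15.7%. Over hg19 tiles without parental coverage it was 13.8% within 5 Mb of an end and 2.87% farther in. The direction in DTP turned with each list held to intervals above its median signal, at -3.48 points.

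The remaining 3 clusters were sparsely marked. On chromosome 7 coverage was 11.8%, 14.3% and 19.4%, in 12, 21 and 39 intervals, the largest increase in number after TSA among the 10. Its genes include ZNF786, ZNF425, ZNF398, ZNF282, ZNF212, ZNF777 and ZNF746, a repressor also called PARIS. The longest parental domain, chr7:149261401-149284600 (23.2 kb), kept 68.1% in a single DTP interval. The tile chr7:149490001-149500000 was at 0, 0 and 68%. With each list held to intervals above its median signal the change in DTP was -2.15 points.

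On chromosome 10 coverage stayed near 10%, at 10.1%, 10.2% and 9.40%, over ZNF248, ZNF25, ZNF33A and ZNF37A. Less of the parental length than in any other cluster, 45.9%, was covered in DTP, and 38.3% was covered after TSA. Over hg19 these shares were 50.3% and 48.9%. The domain chr10:38396201-38413400 (17.2 kb) kept 81.4% in 5 DTP intervals. The tile chr10:38280001-38290000 was at 0, 60% and 56%.

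On chromosome 6 coverage was 4.60%, 8.00% and 6.31%, the lowest of the 10 in each library. This stretch lies in the extended major histocompatibility complex. It holds mostly SCAN-type genes (ZSCAN9, ZSCAN12, ZSCAN31, ZKSCAN3, ZKSCAN4, ZKSCAN8) together with olfactory receptor genes and the glutathione peroxidase genes GPX5 and GPX6. The largest domain, chr6:28049201-28061200 (12 kb), kept 75% in DTP and 65.0% after TSA, as 1 interval each time. The tile chr6:28270001-28280000 was covered in DTP alone, at 62%. Of the 60 tiles without parental coverage 11 (18.3%) had some in DTP and 8 (13.3%) after TSA, where the shares in hg19 were 12.5% and 14.1%. With each list held to intervals above its median signal the change in DTP was -0.43 points.

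The step from DTP to DTP + TSA left the total of the clusters about where it was, while their flanks together gained, most near chromosome ends. Covered length went from 1579.4 to 1693.6 kb, 1.07 times, and that of hg19 1.09 times. Coverage rose in 5 clusters, by 12.64 points on chromosome 5, 6.80 on chromosome 16, 5.05 on chromosome 7, 1.48 on chromosome 1 and 0.75 on chromosome 12. It fell by 0.50 on chromosome 8, 0.80 on chromosome 10, 1.20 on chromosome 4, 1.69 on chromosome 6 and 1.84 on chromosome 3. Of the 358 tiles with any coverage 61 or 17.0% rose by 20 points or more, against 13.1% in hg19 (3.51% of all its tiles), and 30 or 8.38% fell, against 10.3% (2.76% of all). Chromosome 5 had 16 of the rises, chromosome 7 had 12 and chromosome 16 had 10.

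Places marked in DTP were mostly still marked after TSA. Of the 258 DTP intervals in the clusters 221 or 85.7% (80.8 to 89.7) overlapped DTP + TSA, where the share over hg19 was 71.6%. Of 287 DTP + TSA intervals 220 or 76.7% (71.3 to 81.4) overlapped DTP, where it was 66.3%. Domains in DTP + TSA were shorter than in parental cells: the length-weighted median was below parental in all 10 clusters, and the longest interval was shorter than the parental one in all 10. Of the 409.2 kb of parental coverage missing in DTP 32.99% was covered after TSA, and of the 326.6 kb gained in DTP 60.4% was still covered. Over hg19 these shares were 14.2% and 60.1%, not matched on distance to a chromosome end. The DTP list is shared by both steps.

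**Figure D5:**
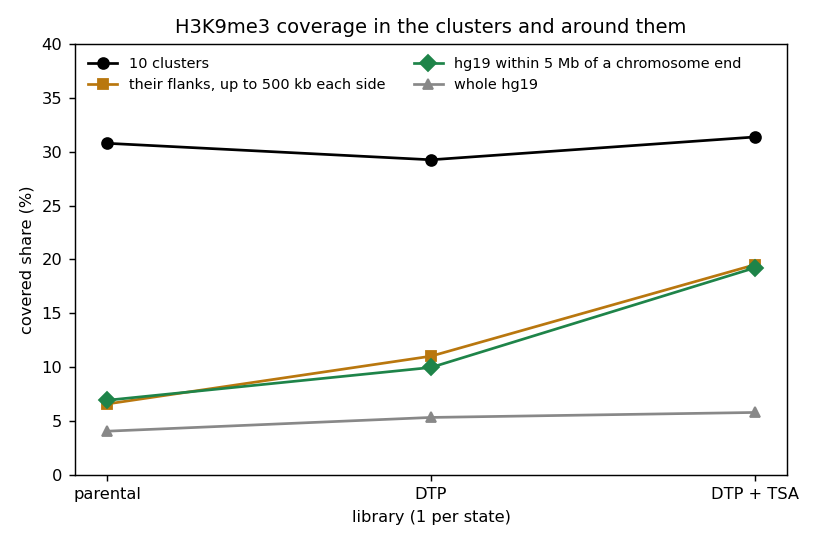
Covered share (percent) of the 10 clusters together, of their flanks of up to 500 kb on each side, of hg19 tiles within 5 Mb of a chromosome end, and of the whole of hg19, in the 3 libraries (1 each, lines join the values of a region). The tiles near ends leave out the ends of chromosome Y and the short-arm ends of the acrocentric chromosomes. The clusters stay near 30%, while the flanks rise from 6.58% to 19.5%.

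The flanks of the clusters moved in another way than the clusters. Over up to 500 kb on each side, 8615.8 kb in all, coverage was 6.58% (parental), 11.0% (DTP) and 19.5% (DTP + TSA), while the clusters were at 30.8%, 29.2% and 31.4%. The flanks that rose most with TSA lay near chromosome ends. The right flank on chromosome 4 went from 9.36% to 27.5% and 48.7%, and that on chromosome 5 from 3.76% to 17.8% and 48.0%. The left flank on chromosome 5 went from 8.68% to 11.1% and 37.0%, that on chromosome 8 from 8.96% to 17.8% and 43.8%, and that on chromosome 12 from 17.1% to 31.1% and 48.3%. From DTP to DTP + TSA the left flanks on chromosomes 3 and 7 fell, from 3.2% to 2.92% and from 3.84% to 2.44%. The right flank on chromosome 12 fell from 63.3% to 59.8%. The remaining flanks rose by less than those named.

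Pooled, the 6 clusters within 5 Mb of a chromosome end (1, 4, 5, 8, 12 and 16) gained less with TSA than hg19 tiles at such distances. Singly they differed. Chromosome 5 gained 12.64 points, above the 9.24 of hg19 in this zone. Chromosomes 16, 1 and 12 gained 6.80, 1.48 and 0.75, and chromosomes 4 and 8 fell by 1.20 and 0.50. Together the 6 clusters went from 43.8% in DTP to 47.4%, 1.08 times, and hg19 tiles in this zone from 9.97% to 19.2%, 1.93 times. The hg19 tiles of this zone leave out the ends of chromosome Y and the short-arm ends of the acrocentric chromosomes. Starting coverage differs between these sets, so tiles were also compared within classes of parental coverage. These classes do not match the sets on DTP coverage, where the step starts. Among tiles at 50% or more in parental cells, 135 of the clusters went from 75.6% to 77.3%, and 1132 of hg19 from 58.1% to 66.85%. Among tiles over 0 and under 50% in parental cells, 52 of the clusters went from 26.8% to 30.2%, and 2283 of hg19 from 23.0% to 36.1%. Among tiles at 0 in parental cells, 93 of the clusters went from 7.16% to 13.5%, and 17085 of hg19 from 5.04% to 13.8%. The 4 clusters farther from the ends (3, 6, 7 and 10) went from 13.6% to 14.1%, and hg19 there from 5.06% to 4.89%. None of these differences was tested, since each state has 1 library.

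The authors' mean signal, ranked within each list, placed the cluster intervals, pooled over the 10, near the middle. The median cluster interval stood at percentile 46.4 (parental), 43.0 (DTP) and 46.5 (DTP + TSA) of its list. Single clusters ranged widely, and chromosome 8 had the highest median in each list, at percentiles 95.4, 79.3 and 86.5. The median interval of chromosome 12 stood at percentile 87.1, 45.5 and 42.4, and that of chromosome 10 at 27.1, 38.4 and 36.6. The lists differ in length, so these ranks describe each list and show no change between them.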

How the data were processed

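The series has 8 samples, of which 3 H3K9me3 libraries were analysed; the other 5 (2 H3K4me3, 3 input) were not used here. Per the labels' protocols, chromatin was sheared to 300 to 500 bp and read as 150 bp pairs. BWA, SICER, hg19 and dm3 are named per the submitters' processing notes, without versions or roles; threshold, input and scaling: not given in the sources used here. Deposited summit and mean signal values are the authors' own, per the file headers, and served only for ranks and filters within a list.

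Coverage was computed on the 200 bp grid of the lists, in 10-kb tiles, with an overlap of at least 1 bp counted as shared. Positions are 1-based. Chromosome lengths and bands came from circlize 0.4.16 (R 4.3.3); other steps used scipy 1.17.1, matplotlib 3.10.9, pandas 2.3.3 and numpy 2.4.6 in Python 3.11.15. Code was tested on built intervals, and 9 of 9 checks returned the known value. Named were the longest interval of each library and the tiles that changed most in each cluster, of which the text gives a selection. Further parental intervals on chromosomes 5, 8 and 12 were named after their values were seen. The clusters, gene lists and rules were chosen with earlier results of these data known.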

Additional observations from a re-analysis of the deposited data

How the results depend on the processing

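Over the clusters together, the rise in intervals per covered Mb from parental to DTP kept its direction in all 8 settings tried. By single clusters it was seen in 8 of 10 with equal numbers by summit value. It was seen in 9 of 10 with equal numbers by mean signal, after joining within 5 kb, and without intervals below the pooled median length. The sign of the small change in covered share did not hold in all settings. With intervals within 5 kb joined, that change was 1.14 points (-1.53 as reported), the share of parental intervals that overlap DTP 87.95% and the ratio of intervals per covered Mb 1.40. With the 23842 strongest intervals of each list by mean signal these were -13.65 points, 46.4% and 1.37, and 71.0% of DTP intervals overlapped DTP + TSA. By summit value, a setting chosen after seeing the data, they were -9.19 points, 54.3% and 1.31. Above each list's median signal they were -7.51 points, 66.7% and 2.35, and 73.1% of DTP intervals overlapped DTP + TSA. Requiring 50% of the interval gave 70.7% of parental intervals, and reciprocal 50% overlap 51.4%, and 58.9% of DTP intervals. The change under TSA was 1.30 to 3.94 points in all settings. Single clusters changed sign from parental to DTP as follows. Above the median signal these were chromosomes 4 (3.96), 6 (-0.43), 7 (-2.15), 8 (-1.70) and 16 (-3.48). With equal numbers by mean signal they were 6 (-1.26), 7 (-3.95), 8 (-1.70), 10 (-4.67) and 16 (-5.20), and by summit value the same 5, at -0.29, -1.18, -3.90, -4.97 and -1.04. With joining they were 1 (1.44) and 3 (4.16), and without short intervals 10 (-1.43). From DTP to DTP + TSA, chromosome 16 was at -0.28 with equal numbers by mean signal. Chromosome 4 was at 0.08 above the median signal and with equal numbers by mean signal, and at 1.10 with borders moved outward by 100 kb. Chromosome 8 was at 1.60 with joining, 2.66 with borders outward and 3.05 by summit value. Chromosome 10 was at 0.60 without short intervals and 0.42 with borders outward. Chromosome 12 was at -2.80 with equal numbers by mean signal, -4.40 by summit value and -1.70 with joining. The causes were not tested. Without chromosome 12, also chosen after seeing the data, no sign changed over the clusters. With a change of 50 points, 9 tiles fell and 12 rose in DTP, so the excess of falls held at 20 points only, and 4 fell and 8 rose with TSA; with tiles shifted by 5 kb, 76 fell and 55 rose in DTP. Depth, copy number and mappability were not examined, and no gap below 800 bp can be seen. No paired analysis was possible because each state has 1 library.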
